A study of Mus musculus with 24 samples.

Results

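The 9 genes described here supply fat cells with fatty acids: lipoprotein lipase (Lpl) with its partners Lmf1, Gpihbp1 and Angptl4, the surface proteins Cd36, Slc27a1 and Vldlr, and the intracellular carriers Fabp4 and Fabp5. They were chosen by gene symbol, with earlier results of these data known, and all 9 were found among the 16118 genes of the deposited table. Poly(A) RNA of subcutaneous inguinal white adipose tissue was sequenced from 24 mice, 1 library per mouse, in 6 groups of 4 animals. Males and females were taken at postnatal day 21, or at day 28 after standard weaning (SW, separated at day 21) or delayed weaning (DW, left with the mother), and the study asked how prolonged suckling remodels the tissue in each sex. The labels give no strain, genotype, litter or treatment other than weaning. The day 21 samples carry SW in their library names, although their titles give another age than their age labels, and the age labels were followed. Each animal is 1 bulk sample of a whole depot, so fewer cells of a type and less RNA per cell cannot be told apart.

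Lipoprotein lipase is a secreted enzyme that splits the triglycerides of chylomicrons and very low density lipoproteins at the capillary wall. LMF1 is needed for the enzyme to fold in the endoplasmic reticulum, GPIHBP1 carries it across the capillary endothelium and holds it there, and ANGPTL4 inactivates it, a brake that is known to rise in fasting adipose tissue. The released fatty acids enter fat cells with the help of CD36 and of FATP1, the product of Slc27a1, are bound inside by FABP4 and FABP5, and are activated to acyl-CoA, while the VLDL receptor binds whole lipoprotein particles. Suckling mice live on high-fat milk, and weaning moves them to a diet richer in carbohydrate.

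All 9 genes were read in every library. The lowest was Lmf1, with 809 to 5107 reads per library, and the highest was Fabp4, with 648828 to 4878021 reads. Values are the deposited normalised read counts, read numbers divided by 1 factor per library. The 9 genes together took between 1.86% and 2.92% of the recovered reads of a library, and Fabp4 alone took between 1.13% and 1.66%. Divided by the length of the gene's merged exons, the mean normalised count over the 24 animals was 2999 per kb for Fabp4, the major lipid carrier of fat cells. It was 617 per kb for Cd36, 468 per kb for Lpl and 201 per kb for Fabp5. Angptl4 at 68.3 per kb and Slc27a1 at 66.9 per kb were nearly level, and Gpihbp1 stood at 50.6 per kb. Vldlr at 5.12 per kb and Lmf1 at 1.36 per kb were the lowest. Divided by the length of a single transcript, Lpl (1192 per kb) and Fabp5 (726 per kb) stood above Cd36 (652 per kb), Gpihbp1 (78.3 per kb) stood above Angptl4 (73.1 per kb), and Lmf1 (9.24 per kb) stood above Vldlr (6.46 per kb), so these neighbours have no firm order.

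The deposited table places Lpl at chr8:69333143-69360100 and Slc27a1 at chr8:72021526-72039946, both on the plus strand. It places Gpihbp1 at chr15:75468477-75471330, plus, and Cd36 at chr5:17986688-18093799, minus. Fabp4 lies at chr3:10269148-10273636, minus, close to Fabp5 at chr3:10077608-10081667, plus. Vldlr lies at chr19:27193884-27231631, plus, Angptl4 at chr17:33992724-34000804, minus, and Lmf1 at chr17:25798059-25881800, plus. The table does not name the build of these positions, and the values are sums over each gene's exons with no transcript or UTR told apart. In the GENCODE vM21 annotation no other gene overlaps any of the 9, and Fabp5 has a processed pseudogene, Fabp5l2, to which near-identical reads could have been assigned, so the level of Fabp5 carries that uncertainty.

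The transcripts of these genes span nearly the whole range of base composition. Cd36 has 38.4% G and C, at percentile 2.16 of the genes with a known transcript, and Fabp4 has 40.3%, Lpl 43.5%, Vldlr 43.8% and Fabp5 45.6%. Angptl4 has 50.7%, Gpihbp1 53.5%, Lmf1 58.4% and Slc27a1 59.1%, the last at percentile 93.1. RefSeq promoter windows, of 250 bases before to 50 bases after a start, were at hand for 4 of the 9 genes in 7 windows (GRCm38.p6, another source than the positions above). Windows for Cd36, Slc27a1 and Lmf1 are printed because these genes mark the ends of the composition range along which their measured values moved. Capitals mark any match, on either strand, to AGGTCA (a nuclear receptor half-site, also bound by PPAR with RXR), TATAAA (the core promoter element), CCAAT (bound by NF-Y) or GGGCGG (an Sp1 site). Of Slc27a1's 3 starts, the one with the most matches is shown.
Cd36, chr5:17835847-17836146, minus strand: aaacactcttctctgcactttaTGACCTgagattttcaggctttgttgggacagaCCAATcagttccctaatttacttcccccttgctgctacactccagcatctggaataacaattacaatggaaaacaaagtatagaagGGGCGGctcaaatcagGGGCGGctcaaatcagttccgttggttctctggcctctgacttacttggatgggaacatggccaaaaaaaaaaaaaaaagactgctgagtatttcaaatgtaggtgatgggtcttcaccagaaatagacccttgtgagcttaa
Slc27a1, chr8:71570344-71570643, plus strand: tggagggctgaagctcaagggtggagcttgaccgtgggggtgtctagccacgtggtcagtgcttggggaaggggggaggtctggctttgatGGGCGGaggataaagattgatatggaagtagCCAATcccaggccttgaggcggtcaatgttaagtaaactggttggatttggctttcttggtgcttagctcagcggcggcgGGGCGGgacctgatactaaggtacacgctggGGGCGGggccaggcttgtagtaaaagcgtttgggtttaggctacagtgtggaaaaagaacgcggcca
Lmf1, chr17:25578924-25579223, plus strand: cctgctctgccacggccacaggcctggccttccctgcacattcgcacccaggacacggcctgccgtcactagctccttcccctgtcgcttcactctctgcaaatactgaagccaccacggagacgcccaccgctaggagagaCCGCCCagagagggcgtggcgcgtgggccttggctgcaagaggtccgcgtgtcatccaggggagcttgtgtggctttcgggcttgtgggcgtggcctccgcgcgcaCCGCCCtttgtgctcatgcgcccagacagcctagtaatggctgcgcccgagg
The Cd36 window held 43% G and C, 1 AGGTCA, 1 CCAAT and 2 GGGCGG. The Slc27a1 window held 56.3% G and C, 1 CCAAT and 3 GGGCGG, and the Lmf1 window held 66.3% G and C and 2 GGGCGG. The half-site AGGTCA was found in the Cd36 window and in none of the other 6 windows of these genes, against 16.26% of all 32851 windows. CCAAT occurs in 37.41% of all windows, GGGCGG in 35.66% and TATAAA in 13.62%, and no match shared a base with a match of another motif in the windows of these genes. A match describes the letters of a window and nothing about binding.

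Recovered reads per library ranged from 57600711 to 302145813, so counting error was small beside the spread between animals for all 9 genes. In 2 male libraries few genes had a read, 14054 in the day 21 male numbered 53 and 15497 in the SW male numbered 84, against at least 15859 elsewhere. Libraries also differed in how their values leaned with transcript base composition. Across 9923 genes, this slope was -0.34 log2 units per 10 points of G and C in the day 21 male numbered 37, -0.37 in the DW female numbered 82 and -0.62 in the DW female numbered 83, against -0.11 to 0.28 in the other 21 libraries. The 8 adipocyte markers were present in every group, with summed normalised counts between 5514 and 12034, and none of them was at 0.

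Taken over the 24 animals after centring each group on its mean, the values of 4 genes followed that slope closely, with no test made. Lmf1 (r = 0.91) and Slc27a1 (r = 0.67), both rich in G and C, were low in the libraries whose values fell with G and C content. Lpl (r = -0.79) and Cd36 (r = -0.71), both poor in G and C, were high in them. Vldlr (r = -0.50) and Gpihbp1 (r = 0.44) lay between, and Fabp4 (r = 0.23), Fabp5 (r = 0.12) and Angptl4 (r = 0.09) hardly followed it. The same libraries enter the pairwise values: within groups Lpl went up and down with Cd36 (r = 0.81) and against Lmf1 (r = -0.57), and Slc27a1 went with Lmf1 (r = 0.73). What these correlations share with the library slope was not tested, and the weaning differences of the 9 genes in females are given below with and without DW females 82 and 83.

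**Figure D1:**
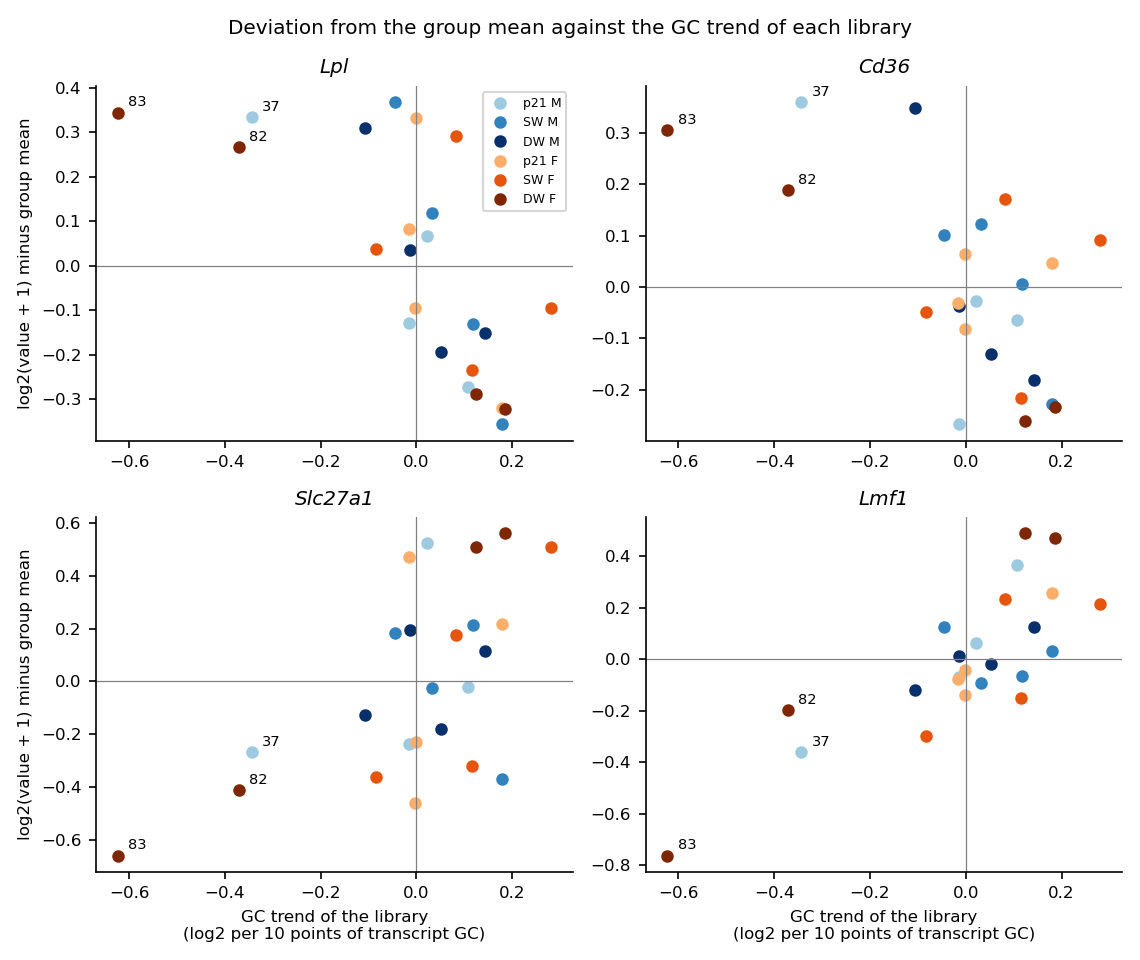
Deviation of each animal from its group mean on the log2(value + 1) scale (vertical axis) against the slope of its library's values per 10 points of transcript G and C content (horizontal axis), for Lpl, Cd36, Slc27a1 and Lmf1; each point is 1 of 24 animals, coloured by group, and animals 37, 82 and 83 are numbered. These 3 animals sit at the left, high for Lpl and Cd36 and low for Slc27a1 and Lmf1.

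The levels by group were close together. Between the group with the highest and the group with the lowest mean, the ratio lay between 1.31 for Fabp4 and 1.47 for Lmf1 in Fabp4, Lpl, Vldlr, Fabp5 and Lmf1, and was 1.71 for Cd36 and 1.79 for Gpihbp1. It was larger for Slc27a1, 2.26, and for Angptl4, 2.38. With the 6 groups put in order of their mean for each gene, all 45 pairs of neighbouring groups had overlapping values. In 2 of the 45 pairs the means differed by more than either group's SD: SW males over SW females for Cd36 and for Angptl4. The lowest mean was that of day 21 males for 6 genes (Gpihbp1, Cd36, Fabp4, Slc27a1, Vldlr and Angptl4), of DW males for Fabp5, of SW females for Lpl and of DW females for Lmf1. The share of a gene's variance that lay between groups was 70.2% for Angptl4, 68.1% for Cd36, 60.2% for Slc27a1 and 58.2% for Gpihbp1, against a median of 37.0% over all genes. For Lpl it was 27.0%, below that median.

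**Figure D2:**
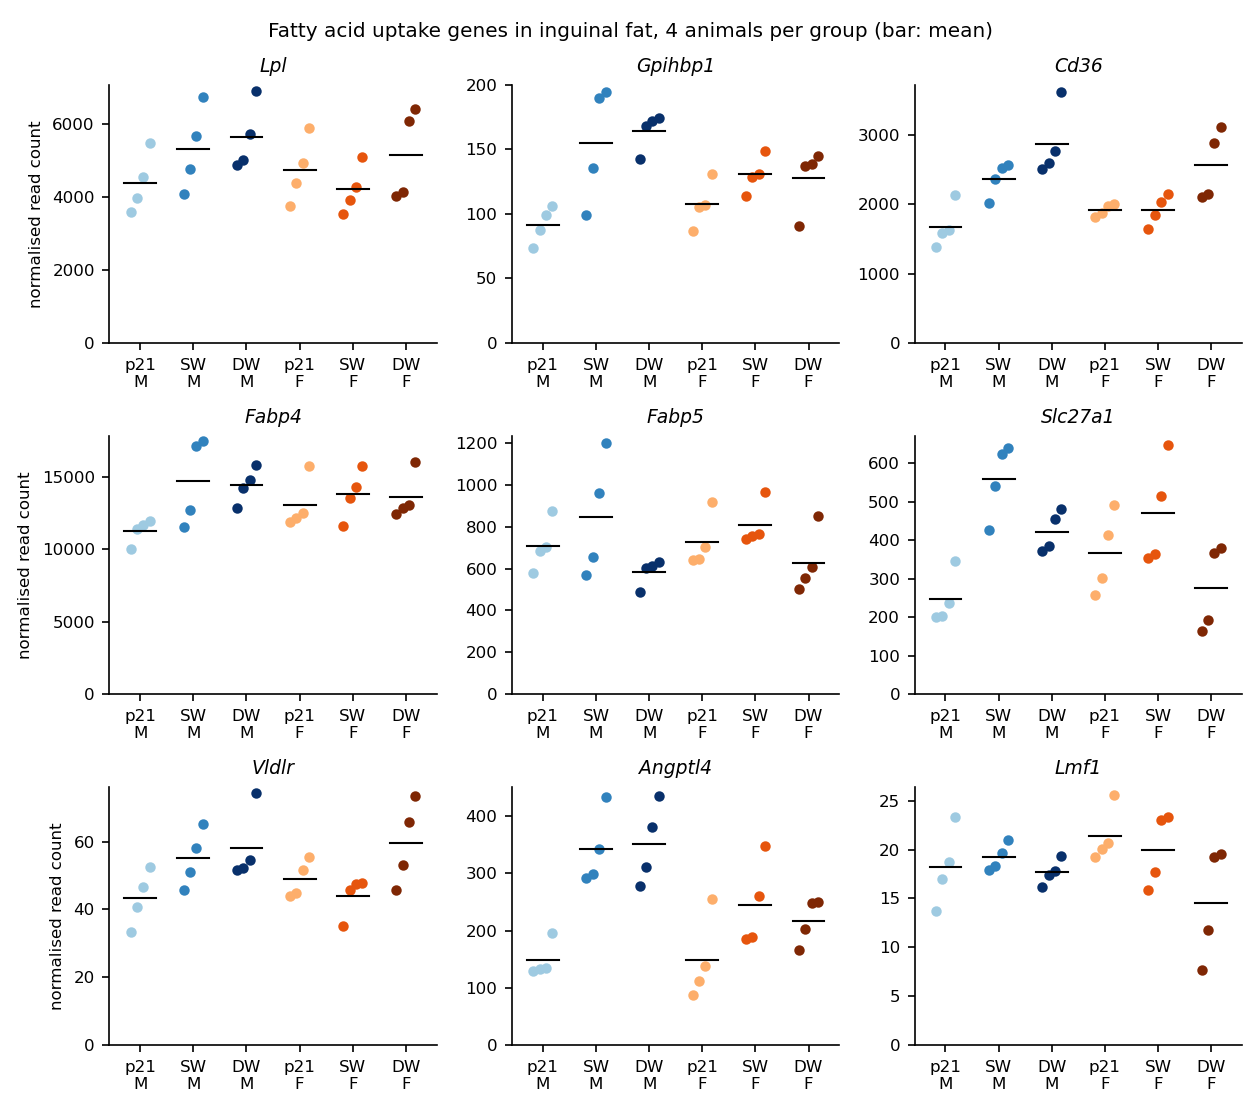
Normalised read counts (vertical axes, from 0, with a separate scale for each gene) in the 6 groups, 4 animals per group as points and the group mean as a bar; M and F are males and females and p21 is day 21. Angptl4 and Slc27a1 in males show no overlap between day 21 and either day 28 group, and no pair of SW and DW groups of 1 sex is free of overlap.

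The genes of this set called between day 21 and day 28 were Angptl4, the lipase inhibitor, Gpihbp1, the capillary anchor, Slc27a1 and Cd36. All rose, and 1 of the 8 calls, that of Angptl4, was in females. No interaction of sex with age was called for the 9 genes. Lpl itself, Lmf1, Vldlr, Fabp4 and Fabp5 were not called in any of the 4 age comparisons. In males under standard weaning 3 of the 9 genes were called and all 3 were higher, beside 11.9% of the 16005 genes tested (limma on log2(value + 1), Benjamini-Hochberg adjusted p under 0.05 over all genes). In males under delayed weaning 4 of the 9 were called, all higher, beside 15% of all genes. In females 1 of the 9 was called under standard weaning, beside 11.6% of all genes, and 0 of the 9 under delayed weaning, beside 12.1%. In that last comparison 3 of the 9 genes and 4414 of all genes had an unadjusted p under 0.05, edgeR also called 0 of the 9, and DESeq2 called 1, Cd36. The median log2 change of the 9 genes was 0.36 in SW males and 0.42 in DW males, against 0.01 and 0.02 over all genes. In females it was 0.08 under standard and 0.11 under delayed weaning, against 0.01 and -0.00 over all genes. Each pair of age comparisons in 1 sex shares its 4 day 21 animals, so the SW and DW values stand side by side and are not independent of each other.

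Angptl4, the inhibitor of the lipase, had the largest rise. Its normalised counts were 129, 196, 134 and 132 in day 21 males, 299, 343, 434 and 292 in SW males and 278, 435, 381 and 311 in DW males. All 8 older males lay above all 4 younger ones. The log2 change was 1.21 (SE 0.26, adjusted p = 0.00423, limma) in SW males, 2.31-fold, and 1.24 (SE 0.26, adjusted p = 0.00332, limma) in DW males, 2.37-fold. In females the counts were 87.8, 255, 138 and 112 at day 21, 188, 259.8, 185 and 348 after standard weaning and 166, 203, 249 and 250.2 after delayed weaning. The female groups overlapped because of the day 21 female numbered 36, whose 255 exceeded all 4 DW and 2 of the 4 SW values. The change was 0.79 (SE 0.26, adjusted p = 0.0484, limma) in SW females. It was 0.65 (95% interval 0.11 to 1.18, adjusted p = 0.103, limma) in DW females, and 0.95 there without animal 36 (adjusted p = 0.0114, limma). The call in SW females was lost under 22 of 37 other settings, with an adjusted p of up to 0.366. The female change was smaller than the male one by 0.42 under standard weaning (95% interval of the interaction -1.17 to 0.34) and by 0.60 under delayed weaning (-1.35 to 0.16), and neither difference was called. The ratio of Angptl4 to Lpl normalised counts went from 0.0343 ± 0.0082 (SD, n = 4) in day 21 males to 0.0666 ± 0.0187 in SW males and 0.0638 ± 0.0176 in DW males. In females it was 0.0341 ± 0.0236 at day 21, 0.0591 ± 0.0204 in SW and 0.0426 ± 0.0045 in DW animals.

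Gpihbp1, the endothelial protein that anchors the lipase, rose in males. Its normalised counts were 73.7, 98.7, 87.6 and 106 at day 21, 194, 135, 189 and 99.2 after standard weaning and 174, 168, 172 and 142 after delayed weaning. All DW males lay above the younger males, while the SW male numbered 124, at 99.2, lay within their range. The log2 change was 0.71 (SE 0.18, adjusted p = 0.0153, limma) in SW males and 0.84 (SE 0.18, adjusted p = 0.00469, limma) in DW males. In females Gpihbp1 ranged from 86.5 to 131 at day 21, from 114 to 148 in SW and from 90.7 to 145 in DW animals. The female changes were 0.29 (95% interval -0.10 to 0.67) and 0.24 (-0.14 to 0.62), and neither was called. Leaving out the SW male numbered 78 or the one numbered 85 took the call in SW males to an adjusted p of 0.0567 and 0.0641, with changes of 0.58 and 0.60.

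Because Gpihbp1 is made by capillary endothelium, it was set against 8 endothelial markers (Pecam1, Cdh5, Kdr, Tie1, Tek, Cldn5, Emcn and Egfl7). Their summed level ran from 1187 to 1384 in day 21 males, from 1321 to 1990 in SW males and from 1840 to 1998 in DW males, and 2 of the 8 were called higher in SW males and 4 in DW males, with none lower. Relative to the mean log2 of these markers, Gpihbp1 was -0.06 ± 0.09 (SD, n = 4) in day 21 males and 0.14 ± 0.25 in SW males. The difference of 0.20 was no larger than the spread (exact two-sided permutation p = 0.257, adjusted p = 0.571 over 36 such tests). In DW males Gpihbp1 stood at 0.25 ± 0.10 on this relative scale, higher by 0.31 than in day 21 males and with no overlap (exact two-sided permutation p = 0.029, adjusted p = 0.129). The relative levels of delayed weaning against day 21 were added after seeing the data and adjusted over these 18 tests, of which 0 passed. An exact p of 0.029 is the smallest that 4 against 4 animals allow, and it passes adjustment only where many tests reach it together. The gene whose level was most like that of Gpihbp1 over the 24 animals was Esam (r = 0.92), an endothelial junction molecule. Car4 (r = 0.87) and Kank3 (r = 0.87) came next. With each group centred on its mean, the closest were instead Mrpl51 (r = 0.88), Phb2 (r = 0.86) and Car4 (r = 0.86).

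**Figure D3:**
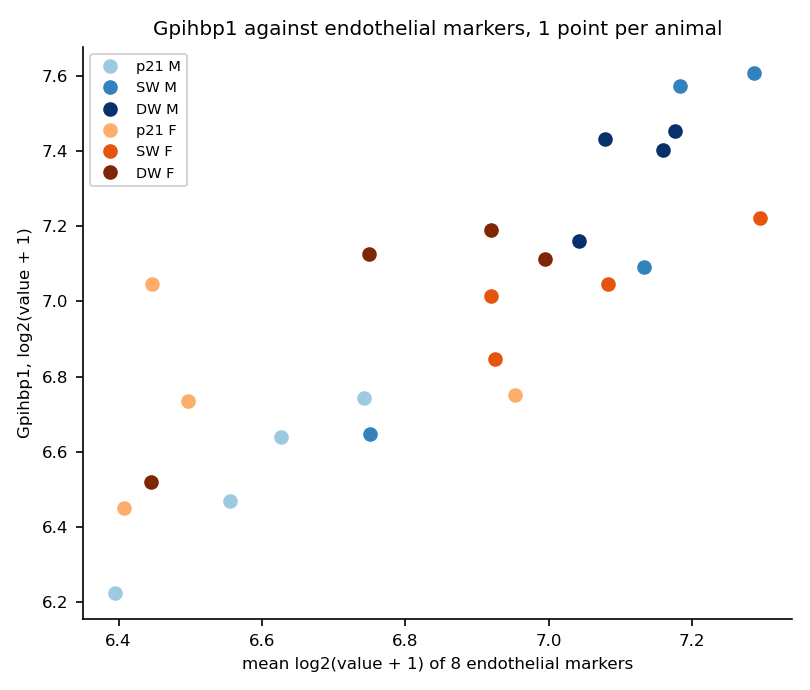
Gpihbp1 (vertical axis, log2(value + 1)) against the mean log2(value + 1) of 8 endothelial markers (horizontal axis); each point is 1 animal, coloured by group. Day 21 males lie at the lower left, and SW and DW males reach the upper right except for 1 SW male.

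Lpl was high in every animal and did not follow its inhibitor. Its normalised counts were 5469, 4545, 3971 and 3592 in day 21 males, 5668, 6733, 4769 and 4078 in SW males and 4877, 5018, 5711 and 6909 in DW males. In females they were 4941, 3739, 4370.2 and 5877 at day 21, 4279, 5098, 3544 and 3904 in SW and 4038, 4134, 6066 and 6404 in DW animals. All groups overlapped. The log2 changes with age were 0.27 and 0.36 in SW and DW males and -0.16 and 0.11 in SW and DW females, and each 95% interval spanned 0 (the widest reach was -0.65 to 0.85 over the 4 comparisons). Lmf1, the folding factor, was low throughout, between 7.64 and 25.6. In DW females it stood at 14.6 ± 5.9 (SD, n = 4), against 21.4 ± 2.8 at day 21, a log2 change of -0.60 (adjusted p = 0.0608, limma) that did not pass the test. The 2 animals that carried that difference were DW females 82 and 83, at 11.8 and 7.64, the libraries with the steepest negative slope with G and C content, and the other 2 stood at 19.3 and 19.6. The change was -0.12 (adjusted p = 0.731, limma) without these 2 animals. It was called with values corrected for base composition, at -0.38 (adjusted p = 0.0139, limma), with tissue scores as covariates, at -0.75 (adjusted p = 0.0371, limma), and without DW female 76 or 77.

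Slc27a1, which encodes the transport protein FATP1, rose in males. Its normalised counts were 199.6, 346, 204 and 237 at day 21, 542, 625, 639 and 427 after standard weaning and 371, 454, 480.2 and 384 after delayed weaning. Both older groups lay above the younger males without overlap. The log2 change was 1.20 (SE 0.27, adjusted p = 0.00563, limma) in SW males, 2.29-fold, and 0.80 (SE 0.27, adjusted p = 0.0453, limma) in DW males, 1.74-fold. In females the counts were 493, 414, 258 and 303 at day 21, and 355, 515, 365 and 648 in SW animals. The DW females split in pairs, with 380.0 and 367 in animals 76 and 77 and 193 and 163 in animals 82 and 83. The female changes of 0.36 (SW) and -0.46 (DW) were not called, and all female groups overlapped. The interaction of sex with age under delayed weaning, -1.27 (95% interval -2.05 to -0.49), was the largest of the 27 interaction values of these genes and was not called (adjusted p = 0.152, limma). The call in DW males was also lost in 16 of 37 other settings, among them leaving out the day 21 male numbered 37 (change 0.71, adjusted p = 0.0934).

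Cd36, the fatty acid translocase, rose in DW males. Its normalised counts were 2124, 1624, 1375 and 1583 in day 21 males, 2561, 2523, 2362 and 2010.1 in SW males and 2591, 2502, 2765 and 3609 in DW males. The DW males lay above all the younger males, and the SW male numbered 124 fell within their range because of animal 37, at 2124. The log2 change was 0.78 (SE 0.17, adjusted p = 0.00494, limma) in DW males and 0.51 (SE 0.17, adjusted p = 0.0562, limma) in SW males, the latter not called. Without animal 37 the SW change was 0.63 and was called (adjusted p = 0.0256, limma). In females Cd36 was 1873, 1976, 1809 and 2001 at day 21, and 1845, 2148, 1644 and 2033 in SW animals, a change of -0.00 (95% interval -0.36 to 0.35). DW females had 2146, 2105, 2873 and 3114, all above day 21 females, with a change of 0.40 that was not called (adjusted p = 0.131, limma). The Vldlr receptor changed by 0.35 in SW males and by 0.42 in DW males (95% interval 0.09 to 0.76, adjusted p = 0.0812, limma), by -0.15 in SW females and by 0.26 in DW females, with no call.

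Fabp4, at 9997 to 17456 normalised counts, was the most even of the 9 genes. The 4 day 21 males, between 9997 and 11960.3, lay below all 4 DW males, between 12854 and 15827, and below 3 of the 4 SW males, yet the changes of 0.36 in each were not called (95% interval -0.22 to 0.95 in SW and -0.23 to 0.94 in DW males). limma's SE of each change was 0.28, drawn toward the variance of other highly expressed genes. The gene's own residual SD between animals was 0.19, from which an SE of a difference between 2 groups of 4 would be smaller still. DESeq2 called the change in SW males (0.39, adjusted p = 0.0341). In females the changes were 0.08 and 0.06. Fabp5 changed by 0.21 and 0.15 in SW males and females and by -0.27 and -0.23 in DW males and females, none of them called. Counting genes whose 2 groups did not overlap, there were 2 of the 9 in SW males against day 21 (Slc27a1 and Angptl4), beside 16.2% of all genes. There were 5 in DW males (Gpihbp1, Cd36, Fabp4, Slc27a1 and Angptl4), beside 23.1%. There were 0 in SW females, beside 21.5%, and 1 in DW females (Cd36), beside 15.1%.

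**Figure D4:**
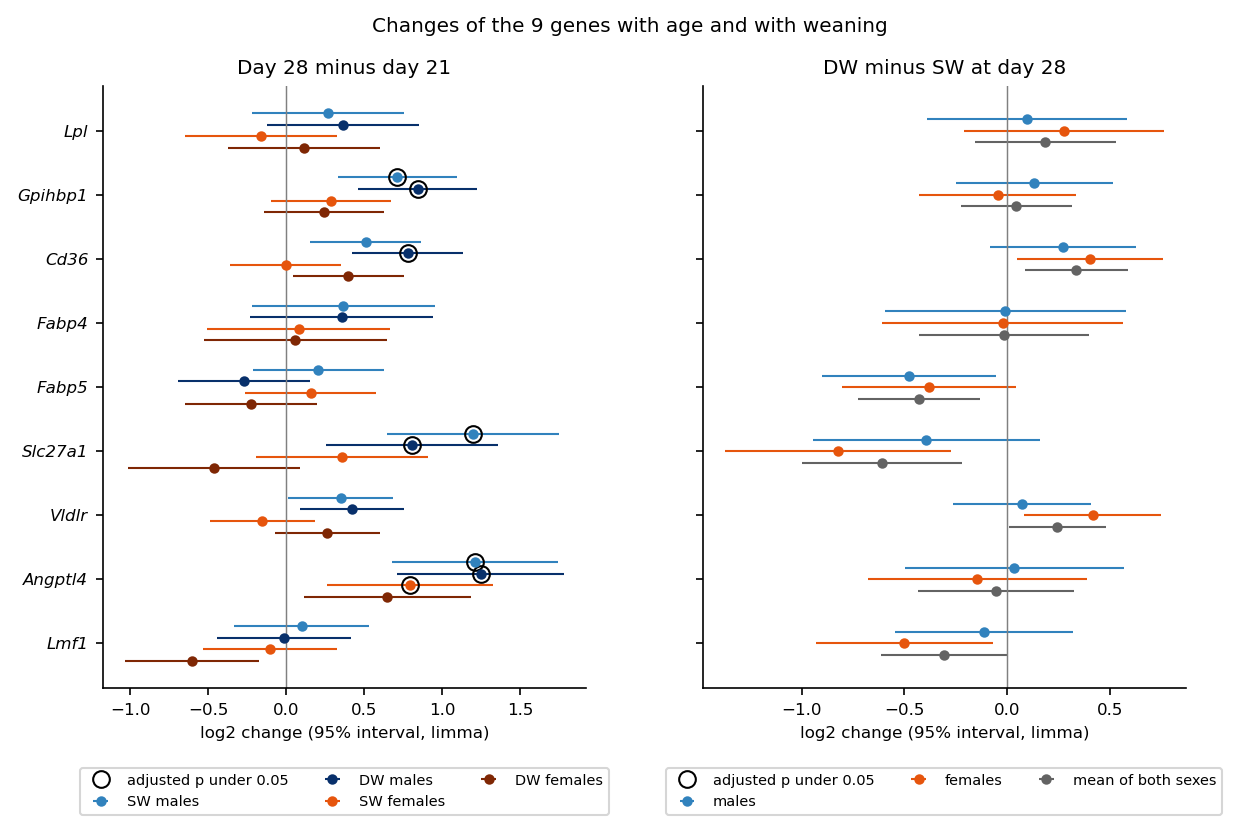
Log2 changes of the 9 genes with age (left, day 28 minus day 21) and with weaning (right, DW minus SW at day 28) on the horizontal axes, with 95% intervals from limma; rings mark an adjusted p under 0.05. Rings appear for Gpihbp1, Cd36, Slc27a1 and Angptl4 with age and for no gene with weaning.

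Other tissue signals moved with age in the same animals. The sum of 9 skeletal muscle markers ran from 5.44 to 569 in day 21 males, from 458 to 6817 in SW males and from 336 to 7211 in DW males, and 8 of the 9 were called higher in each comparison. The sum of 8 macrophage markers ran from 370.5 to 504 in day 21 males, from 665 to 1034 in SW and from 840.2 to 958 in DW males, with 6 and 8 of 8 called higher. Markers of other cells fell: the sum of 6 erythroid markers ran from 568 to 2141 in day 21 males, from 188 to 584 in SW and from 168 to 389.7 in DW males, with 4 and 5 of 6 called lower. Of 6 lymph node markers 3 were called lower in each group of males, and their sum ran from 321 to 614 at day 21, from 292 to 432 in SW and from 264 to 332 in DW males. Of 8 adipocyte markers 3 were called higher and 1 lower in SW males, and 2 higher in DW males. Among them was Cidec, a lipid droplet protein, with rises of 1.22 and 1.00. With scores of muscle, mammary and lymph node markers in the fit as covariates, 0 of the 9 genes were called with age in either group of males. The changes then were 0.87 and 0.86 for Angptl4, 0.62 and 0.76 for Gpihbp1, 0.78 and 0.32 for Slc27a1 and 0.31 and 0.50 for Cd36 (SW and DW), with adjusted p between 0.106 and 0.651 for the 7 changes called without the covariates. What part muscle, macrophage, erythroid or lymph node RNA had in these changes was not tested. Relative to the mean log2 of the adipocyte markers, Angptl4 was higher by 0.71 in SW than in day 21 males with no overlap (exact two-sided permutation p = 0.029, the smallest that 4 against 4 animals allow, adjusted p = 0.343). Slc27a1 was higher by 0.70 (exact p = 0.0571, adjusted p = 0.411) and Cd36 by 0.01 (exact p = 0.943, adjusted p = 0.943) on this relative scale. In DW against day 21 males, Angptl4 was higher by 0.80 with no overlap (exact p = 0.029, adjusted p = 0.129). Slc27a1 was higher by 0.36 (exact p = 0.114, adjusted p = 0.343) and Cd36 by 0.33 (exact p = 0.2, adjusted p = 0.4), with overlap. Angptl4 in females was on this relative scale higher than at day 21 by 0.69 under standard weaning (exact p = 0.171, adjusted p = 0.549), with overlap. Under delayed weaning it was higher by 0.78 (exact p = 0.171, adjusted p = 0.386), also with overlap. Lmf1 was lower relative to these markers with no overlap in both groups of males, at -0.40 in SW and -0.46 in DW (exact p = 0.029 in each). So was Fabp5 in DW males, at -0.72 (exact p = 0.029). Lmf1 itself changed by 0.10 in SW and by -0.02 in DW males, neither called. The mean log2 of the adipocyte markers was 9.44 in day 21, 9.94 in SW and 9.89 in DW males. Of the 36 relative comparisons, weaning included, 0 passed after adjustment, and 0 of the 18 added ones did. No share over all genes was formed on this relative scale. Without overlap, and so at the smallest exact p, were 3 of the 36 and 4 of the 18. A test at that floor passes adjustment only where many others reach it too, so these results cannot show that levels were equal. For weaning in females Slc27a1 differed by -0.59 with no overlap (exact p = 0.029, adjusted p = 0.343).

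The timing of weaning moved none of the 9 genes past the test. In males 0 of the 9 were called between DW and SW, beside 0.256% of all genes (limma), and 1 of the 9 (Fabp5) and 1110 of all genes had an unadjusted p under 0.05. In females 0 were called, beside 1.27% of all genes, and 4 of the 9 (Cd36, Slc27a1, Vldlr and Lmf1) and 3019 of all genes had an unadjusted p under 0.05. For the mean of both sexes 0 were called, beside 2.21% of all genes, with 5 of the 9 and 2781 of all genes under an unadjusted p of 0.05. edgeR also called 0 of the 9 in each of these, and DESeq2 called 0 in each sex and 2 in the mean of both, Cd36 (0.35, adjusted p = 0.0413) and Slc27a1 (-0.59, adjusted p = 0.0404). All 9 genes overlapped between DW and SW animals in both sexes, beside 8.73% of all genes without overlap in males and 5.79% in females. The median change of the 9 genes was 0.04 in males and -0.05 in females, against 0.00 and -0.02 over all genes. These comparisons use the same day 28 animals as the age comparisons above.

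No gene of the lipase group was called between SW and DW males. The log2 difference, DW minus SW, was 0.09 for Lpl (95% interval -0.39 to 0.58), 0.13 for Gpihbp1 (-0.25 to 0.51), 0.04 for Angptl4 (-0.50 to 0.57) and -0.11 for Lmf1 (-0.55 to 0.32). In females it was 0.28 for Lpl (-0.21 to 0.76), -0.05 for Gpihbp1 (-0.43 to 0.34), -0.14 for Angptl4 (-0.68 to 0.39) and -0.50 for Lmf1 (-0.93 to -0.07). These intervals leave room for differences of about the size of the smaller age changes. Fabp4 differed by -0.01 (-0.60 to 0.58) in males and by -0.02 (-0.61 to 0.57) in females.

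The largest weaning difference of the set was that of Slc27a1 in females, at -0.82 (95% interval -1.37 to -0.27, adjusted p = 0.134, limma), with -0.39 (-0.94 to 0.16) in males. Cd36 was higher by 0.40 (0.05 to 0.76, adjusted p = 0.226) in DW females and by 0.27 (-0.09 to 0.62) in DW males. Vldlr was higher by 0.42 (0.08 to 0.75, adjusted p = 0.203) in DW females and by 0.07 in DW males. These female differences were smaller without animals 82 and 83. Then Slc27a1 differed by -0.29 (-0.84 to 0.27), Cd36 by 0.16 (-0.23 to 0.54), Vldlr by 0.17 (-0.20 to 0.55), Lpl by -0.03 (-0.57 to 0.51) and Lmf1 by -0.02 (-0.37 to 0.33). Gpihbp1 then differed by 0.12 (-0.32 to 0.55), Fabp4 by 0.08 (-0.64 to 0.79) and Angptl4 by -0.36 (-1.03 to 0.30), farther from 0 than with all animals. With values corrected in each library for base composition, Slc27a1 differed by -0.46 (-0.87 to -0.05), Cd36 by 0.21, Vldlr by 0.31, Lpl by 0.16 and Lmf1 by -0.18, and none was called. In the other direction, leaving out DW female 76 or 77, whose slopes were positive, brought Slc27a1 in females to -1.01 and -0.99, past the threshold (adjusted p = 0.0253 and 0.0441, limma). The call therefore turned on which DW females were kept, and so did the count over all genes, 204 with all animals and 7 without animals 82 and 83. Among animals numbered 73 to 80 the female difference of Slc27a1 was -0.12 (2 DW and 3 SW animals). Among those numbered 81 to 87 it was -1.86 (2 DW and 1 SW animal). The same females also differed in other tissue signals. The sum of 9 muscle markers ran from 381 to 3372 in SW and from 4.72 to 2116 in DW females. That of 8 mammary markers ran from 269 to 378 and from 112 to 239. Of these markers 0 were called for weaning in females, and what part such tissue had was not tested.

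**Figure D5:**
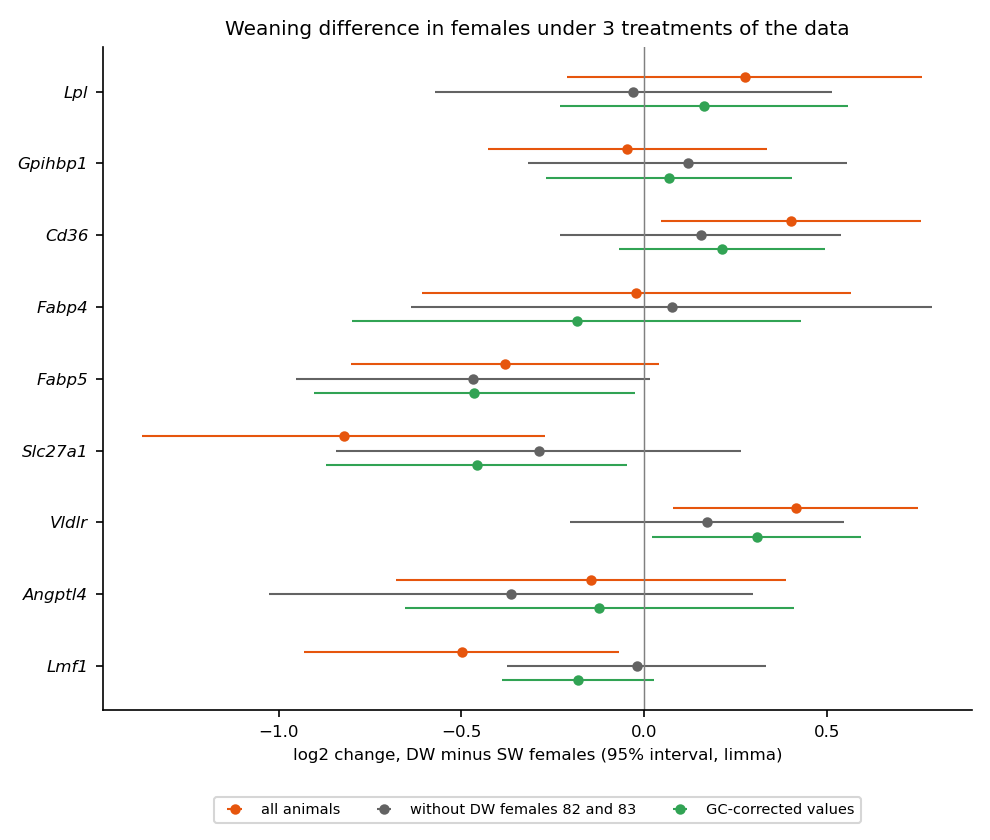
Log2 difference between DW and SW females for the 9 genes (horizontal axis) with 95% intervals from limma, from all animals, without DW females 82 and 83, and from values corrected for base composition. The differences of Slc27a1, Lmf1, Cd36 and Vldlr lie nearer to 0 without the 2 animals, and that of Fabp5 does not.

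The weaning difference of Fabp5 did not shrink when those libraries were left out. Its normalised counts were 961, 654, 1201 and 569 in SW males and 488, 615, 605 and 631 in DW males, so the DW males were even while the SW males spread widely. They were 763, 740.4, 754 and 967 in SW females and 606, 553, 851 and 502 in DW females, where 3 of the 4 DW animals lay below all SW animals. The DW minus SW difference was -0.48 (95% interval -0.90 to -0.05, adjusted p = 0.642, limma) in males and -0.38 (-0.80 to 0.04, adjusted p = 0.305) in females. For the mean of both sexes it was -0.43 (-0.73 to -0.13, unadjusted p = 0.00694 and adjusted p = 0.128, limma). In females it was -0.47 without animals 82 and 83 and -0.46 after the correction for base composition. With 1 animal left out at a time it ran from -0.65 to -0.29 in males and from -0.54 to -0.28 in females. Relative to the adipocyte markers it was -0.42 in males (exact permutation p = 0.229, adjusted p = 0.549). On that relative scale it was -0.15 in females (exact permutation p = 0.543, adjusted p = 0.735), with overlap in both sexes. Among animals numbered 73 to 80 it was -0.81 in males (2 DW and 1 SW animal) and -0.38 in females (2 and 3). Among those numbered 81 to 87 it was -0.52 in males (2 and 2) and -0.56 in females (2 and 1). DW was thus the lower group in each of the 4 subsets, as it was for Slc27a1. The SW male numbered 124, the lowest SW male at 569, lies in neither subset. The ratio of Fabp4 to Fabp5 normalised counts was 18.0 ± 2.5 (SD, n = 4) in SW and 25.0 ± 4.1 in DW males, with ranges of 14.5 to 20.3 and 21.3 to 30.3 that did not overlap. It was 17.2 ± 1.7 in SW and 22.5 ± 5.4 in DW females, with ranges that did, while DW females 76 and 77 alone stood at 23.5 and 26.4, above the highest SW female at 19.3. These ratios were formed after the values were seen and carry no test.

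Males and females did not differ past the test in any of the 9 genes. At day 21, 0 of the 9 were called, beside 0.356% of all genes, and Slc27a1 was the member with an unadjusted p under 0.05, higher by 0.56 in females (adjusted p = 0.575, limma). After standard weaning 0 were called, beside 3.54% of all genes, and 0 of the 9 had an unadjusted p under 0.05. After delayed weaning 0 were called, beside 2.46% of all genes. Angptl4 was lower in DW females than in DW males by 0.69 on the log2 scale (95% interval of female minus male -1.22 to -0.16, adjusted p = 0.154, limma) and was the 1 gene of the 9 without overlap between the sexes, beside 10.9% of all genes. Slc27a1 stood at -0.70 in the same comparison (adjusted p = 0.158). No gene of the 9 was free of overlap between the sexes at day 21, beside 3.97% of all genes, or after standard weaning, beside 7.77%. At unadjusted p under 0.05 the counts over all genes were 1376 at day 21, 1466 after standard weaning and 3158 after delayed weaning, and edgeR and DESeq2 also called 0 of the 9 in each.

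For the interactions, 0 of the 9 were called for sex with weaning (beside 0.0187% of all genes), for sex with age under standard weaning (beside 1.03%) and for sex with age under delayed weaning (beside 0.0687%). All 9 interaction values under standard weaning were below 0, with a median of -0.42 against 0.00 over all genes, which says that each gene's change with age was lower in females than in males. Under delayed weaning 8 of 9 were below 0, with a median of -0.38 against -0.02. The 9 genes share the same animals, so these are not 9 independent observations, and the higher number of calls with age in males is not shown to differ from that in females. Unadjusted p under 0.05 was seen for 0, 3 and 2 of the 9 genes in the 3 interactions, and for 815, 1304 and 2723 of all genes. edgeR and DESeq2 called 0 of the 9 in each.

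The genes whose levels over the 24 animals were most like those of each member were found by Pearson's r among 5042 genes whose average level over the animals reached 5 on the log2 scale, as a description without a test. For Angptl4 they were Pck1 (r = 0.91), which encodes the glyceroneogenic enzyme PEPCK, Rnf144a (0.86) and Trf (0.86), which encodes transferrin. For Slc27a1 they were Pxmp4 (0.93), a peroxisomal membrane protein, Cidec (0.93) and Crat (0.91), carnitine acetyltransferase. For Cd36 they were Lama4 (0.90), a basement membrane laminin chain, Rapgef5 (0.89) and Pon3 (0.88). For Lpl they were Insr (0.89), the insulin receptor, Hook3 (0.88) and Qki (0.87), and for Lmf1 they were Nacc1 (0.94), Ube3b (0.94) and Bckdk (0.94). For Vldlr the closest was Ghitm (0.85), for Fabp4 Csad (0.81) and for Fabp5 Cisd3 (0.74), the weakest of the 9. The 3 genes closest to Lmf1 have transcripts with 52.7% to 57.7% G and C, above the median of 50.3%, and those closest to Lpl have 38.9% to 46.8%, below it. These genes share libraries and base composition with the member they resemble.

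Other genes of the pathway, 65 in 7 lists, of which 60 were tested, were called for weaning at shares near those of all genes. In males 0 of the 60 were called, beside 0.256% of all genes. In females 1 was called (1.67%, beside 1.27% of all genes), lower in DW: Sdc1, syndecan 1, a proteoglycan that binds lipoprotein remnants, at -0.74 (SE 0.14, adjusted p = 0.00772, limma). Without DW females 82 and 83 it was -0.60 (adjusted p = 0.338, limma) and not called. For the mean of both sexes 1 was called (1.67%, beside 2.21% of all genes), lower in DW: Apoc1, an apolipoprotein that inhibits lipoprotein lipase, at -0.82 (SE 0.18, adjusted p = 0.0117, limma). Apoc1 was -0.60 (adjusted p = 0.0961, limma) without DW females 82 and 83 and was not called. With age 4 were called higher and 2 lower in SW males, 10% of the 60 beside 11.9% of all genes. In SW females 6 were higher and 7 lower, 21.7% beside 11.6%. In DW males 7 were higher and 4 lower, 18.3% beside 15%, and in DW females 3 were higher and 6 lower, 15% beside 12.1%. These shares carry no test.

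By role, 14 genes of lipase maturation, activation and inhibition and related lipases were tested. Lipg, endothelial lipase, rose by 1.18 in SW males and by 1.40 in DW males, and Apoc1 rose by 1.17 in SW males and 1.00 in SW females. Sdc1 rose by 1.28 in SW females and by 0.55 in DW females. Lower in this list were Apoc2, the activator of the lipase, by 0.19 in SW females and 0.16 in DW females on the log2 scale, and Apoc3, an inhibitor, at -0.72 in DW males. Of 7 other lipoprotein receptors, 1 was called higher and 1 lower in SW males, 1 and 1 in SW females, 2 and 1 in DW males and 0 and 2 in DW females. Among them Sort1 rose in SW and DW males (0.50 and 0.64), Lrp1 rose in DW males (0.88), Lsr rose in SW females (1.29) and Scarb1 changed by -0.55 in DW females. For Sdc1 and Lsr the rise under standard weaning was larger in females than in males (interaction 1.30 and 1.40, adjusted p = 0.000639 and 0.0242, limma). Both are also made by epithelial cells, and the sum of 8 mammary epithelial markers ran from 269 to 378 in SW females, from 112 to 239 in DW females and from 1.25 to 43.8 in SW males; what part mammary epithelium had was not tested. Of 11 other transporters and acyl-CoA synthetases, Acsl1, the main activating enzyme of fat cells, rose by 0.56 in both SW and DW males. Acsl3 and Acsl5 changed by -0.54 and -0.46 in DW males, and in SW females Slc27a2 changed by -1.15 and Acsbg1 by 0.96. Of 6 other fatty acid binding proteins, Fabp3 fell in SW females by 1.67, and none was called in the other 3 age comparisons. Of 9 PPAR receptors, partners and coactivators, 3 fell in SW females: Pparg by 0.76, Ppara by 1.04 and Ppargc1a by 0.70 on the log2 scale. In DW females 2 fell, Ppargc1a by 0.88 and Ppargc1b by 1.05. In males 0 were called under standard weaning and 1 under delayed weaning, Rxra, which rose by 0.50. The interaction of sex with age was called for 0 of these 9 genes under either weaning, so the sexes are not shown to differ.

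The authors' deposited table gives its own values for the 9 genes, for day 28 DW against SW as DW minus SW. For Slc27a1 in females the authors' deposited table has a log2 fold change of -0.772 with 0.00402 in a column headed as an adjusted p, and for Cd36 0.417 with 0.00843. For Fabp5 in males the authors' deposited table has -0.534 with 0.0111. For the 9 genes in both sexes, the fold changes of weaning in the authors' deposited table lie within 0.057 of the limma values. In these columns of the authors' deposited table at most 8 of 16108 values were tied with a neighbour, whereas Benjamini-Hochberg adjustment ties many, so the columns may hold unadjusted values and were not used for calls.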

How the data were processed

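The 9 genes, the pathway lists and the marker lists were chosen with earlier results of these data known. In the deposited table the values are a normalised signal for each gene in each library, read numbers divided by 1 factor per library. The authors also deposited, per the file headers, a log2 fold change and a p-value column headed padj for 15 comparisons, of which 9 were mapped and are quoted only as the authors' deposited table. The submitters' processing notes name fastp, HISAT2, featureCounts, DESeq2 1.38.3 and mm10, with no role or order, and strand setting and annotation are not given in the sources used here. Only 2.23% of 16095 deposited gene starts equal those of GENCODE vM21 (GRCm38), so the build of the deposited positions is unsure. The table has 16208 rows for 16118 genes, after 90 repeated rows were left out. All values (100%) were whole multiples of a library's smallest value within 0.001, so reads could be recovered, and 0 columns of per-sample values were unmapped.

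Because the file held normalised values, limma 3.58.1 (R 4.3.3) was fitted on log2(value + 1), as the design provided for that case. All 24 libraries entered 1 fit of 6 group means with a variance trend (18 residual degrees of freedom). The 16005 genes kept by edgeR's filterByExpr (minimum count 10) were tested, with Benjamini-Hochberg adjustment over all of them and calls at 0.05. Changes on this scale understate those of low genes. edgeR 4.0.16 and DESeq2 1.42.0 on the recovered reads were alternatives, beside other filters, pseudocounts, covariates and left-out animals. Runs without animals 82 and 83, or 37, 82 and 83, and with base composition corrected in 20 bins of transcript GC were added after seeing the data. For levels relative to marker lists, exact permutation tests (two-sided) were used, and those of delayed weaning against day 21 were added after seeing the data. The scripts were checked on simulated data.

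Groups came from the library descriptions and labels. The 8 day 21 titles give day 28, and 1 gives another animal number than its label. No 2 libraries of the same group agreed within counting noise (smallest chi-square per degree of freedom 79.5 over 36 pairs), and pairs across groups were not compared. Each animal is 1 library, so p-values measure the spread between these animals. The tests treat the animals as independent, but litters are not given and their part was not tested. If littermates are alike, the p-values may be too low. Chi-square per degree of freedom was 129 between DW females 76 and 77 and 127 between 82 and 83. Across these pairs it was 610 to 812. It was 80.4 between DW males 79 and 80 and 92.1 between 86 and 87, against 169 to 257 across. Among SW males it was 194 between 84 and 85, above 130 between 78 and 84. All 9 genes were named, and of other pathway genes those called for weaning or the 2 with the largest change among the called of a list, with 3 genes most like each of the 9. Other genes of small counts were named after their values were seen, and 1 pathway gene that the rule names is not reported here.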

Additional observations from a re-analysis of the deposited data

Results flagged for a closer look

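Within a group of 4 animals, 11 of 66 sets of values had 1 animal far from the other 3, by a gap past Dixon's 95% critical value for the group's range. Chance alone flags about 1 in 20, or 3.3 of 66. On the log2(value + 1) scale, Angptl4 was 7.62 in the day 21 male numbered 38, above 7.02 to 7.08 in the others. Fabp4 was 13.94 in the day 21 female numbered 30, above 13.54 to 13.60. Fabp5 was 8.93 in the DW male numbered 79, below 9.24 to 9.30, and 9.92 in the SW female numbered 81, above 9.53 to 9.58. Vldlr was 6.23 in the DW male numbered 87, above 5.72 to 5.79, and 5.18 in the SW female numbered 75, below 5.54 to 5.61. Gpihbp1 was 6.52 in the DW female numbered 83, below 7.11 to 7.19.

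Among measures of the libraries, the number of genes with a read was 14054 in the day 21 male numbered 53, 15497 in the SW male numbered 84 and 15972 in the SW female numbered 74, each the lowest of its group. The slope of the values with base composition was 0.179 log2 units per 10 points in the day 21 female numbered 36, above -0.016 to -0.002 in the other 3 animals of its group.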

How the results depend on the processing

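None of the 8 called changes of the 9 genes changed sign in any of the 37 settings run for each, and 33 settings called a change that was not called above. Of 109 uncalled changes 49 changed sign somewhere, in 165 of 4087 settings. In SW males against day 21, 3 of the 9 genes were called, against 5 with DESeq2 and with base composition corrected, 1 without animals 53 and 84 or 36, 53 and 84, and 0 with tissue scores as covariates. The 4 calls in DW males became 0 with these scores. The 1 call in SW females became 0 with edgeR (TMM or DESeq2 size factors), without the variance trend, with the scores, with only the compared groups and without animals 53 and 84. The 0 in DW females became 1 with DESeq2 (Cd36), with the scores and with corrected base composition (Lmf1 in both) and without 36, 53 and 84 (Angptl4), and the 0 for weaning in the mean of both sexes became 2 with DESeq2. The cause of these shifts was not tested.

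Leaving out 1 animal at a time gave 0 to 3 of the 9 genes for weaning in females, 0 to 1 in the mean of both sexes, 0 to 1 with age in SW females and in DW females, 2 to 4 in SW males and 3 to 4 in DW males, and 0 to 1 for sex after delayed weaning. Counts over all genes moved more: weaning in females called 204 genes, from 45 to 1996 with 1 animal left out and from 1 to 295 under the other settings, and weaning in males called 41, from 10 to 71 and from 25 to 127. No paired analysis was possible because animal numbers are not shared between groups. Depth limits none of the 9 genes, since the fewest reads, 809 for Lmf1, give a counting error below the spread between animals.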
